A study of Mus musculus with 6 samples.

Results

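Heme synthesis enzymes and the transferrin receptor were followed through sorted mouse thymus cells with and without RBPJ. The set holds 9 genes of the 47729 in the count tables, chosen by name and matched by gene ID: Alas1, Alas2, Alad, Uros, Urod, Cpox, Ppox and Fech, which encode enzymes of heme synthesis, and Tfrc, which encodes transferrin receptor 1. All 9 passed the filter on low counts, so none was left out of the tests below.

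Heme, the iron-holding ring of hemoglobin, cytochromes and many other proteins, is built in a chain of steps that starts and ends in mitochondria. 5-aminolevulinate synthase makes the first intermediate and sets the rate. The housekeeping form ALAS1 is made in most cells and is held down by heme, whereas ALAS2 is the form of red cell precursors. ALAD, UROS and UROD work in the cytosol, where the ring is built. CPOX and PPOX oxidise it in mitochondria, and ferrochelatase (FECH) inserts iron. Iron reaches most cells by endocytosis of transferrin bound to transferrin receptor 1, which is most abundant on dividing cells and on red cell precursors. DN1a/b cells are the earliest thymocytes, with high KIT and CD44, and can still give rise to several blood lineages.

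DN1a/b cells sorted from the thymus of C57BL/6 mice gave 6 RNA sequencing libraries, 2 in each of 3 groups. Control mice kept RBPJ, the nuclear partner of Notch receptors, throughout. According to the labels RBPJ uninduced mice were without it, and RBPJ 6 days induced mice were without it until doxycycline was given, first by injection (2 mg/ml) and then in drinking water (1 mg/ml). The alleles and promoters behind the loss and the induction, the ages of the mice, and any doxycycline given to Control or uninduced mice are not stated in the labels. RBPJ and doxycycline therefore cannot be told apart wherever the induced group is compared. The labels do not tie the replicates of a group to different animals, so the p-values reflect only how these libraries vary, which may be technical. The 3 comparisons share libraries with each other and are not independent.

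The deposited counts summed to between 5098927 and 12932928 per library, with Control replicate 2 and RBPJ uninduced replicate 1 the shallowest. Rbpj itself stood at 74.1 and 72.9 CPM (the count as a rate on the scaled library total) in Control, 28.2 and 29.98 in RBPJ uninduced and 198 and 203 in RBPJ 6 days induced. The direction follows the labels, although a near-identical pseudogene copy could share reads. Uninduced cells still held 0.396-fold the Control level of Rbpj RNA (edgeR adjusted p = 0.00495). Induced cells held 2.73-fold the Control level (adjusted p = 0.0175), so they did not simply return to it. Of the sorting markers, Kit was between 372 and 631 CPM in the 6 libraries. Cd44 differed between groups, at 390 and 342 CPM in Control, 198 and 196 in RBPJ uninduced, and 349 and 307 in RBPJ 6 days induced. Its log2 fold change without RBPJ was -0.89 (edgeR adjusted p = 0.0188). With only the 4 compared libraries that fall did not pass (-0.91, adjusted p = 0.0754). Some libraries stood apart. Control replicate 2 held 131 CPM of the T-cell factor Bcl11b against 5.10 in Control replicate 1. RBPJ uninduced replicate 2 held 747 CPM summed over 7 B-lineage genes against 7.005 to 40.1 in the other 5 libraries, and 16.5% of its counts were mitochondrial ribosomal RNA against 9.26% to 12.4%.

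The sequences that bear on control of these genes come first. Alas2 and Tfrc messages are known for iron-responsive elements, stem-loops bound by iron regulatory proteins when iron is short, which block translation from a 5′ untranslated region and stabilise the message from a 3′ untranslated region. GENCODE M21 transcripts on GRCm38 were searched for the loop letters CAGTGN preceded by a C and 5 bases that pair, Watson-Crick or G with U, with the 5 bases after the loop. Among 21901 protein-coding genes, 294 (1.34%) held a match anywhere in a transcript, 31 (0.142%) in a 5′ untranslated region and 129 (0.589%) in a 3′ untranslated region. Of the 9 genes, Alas2 and Tfrc held matches, printed 5′ to 3′ on the plus strand with the loop in capitals, Alas2 at chrX:150547458-150547486 and the 4 of Tfrc at chr16:32631219-32631247, chr16:32631598-32631626, chr16:32631663-32631691 and chr16:32631710-32631738.
Alas2 5′ element: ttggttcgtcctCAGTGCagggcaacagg
Tfrc 3′ element 1: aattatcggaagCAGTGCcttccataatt
Tfrc 3′ element 2: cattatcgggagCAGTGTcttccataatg
Tfrc 3′ element 3: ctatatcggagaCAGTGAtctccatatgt
Tfrc 3′ element 4: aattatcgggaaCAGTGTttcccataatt

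Promoter windows of 250 bases before the RefSeq start sites (GRCm38.p6) matched 8 of the 9 genes by symbol (all but Fech) and were searched on both strands. The letters GATAA, bound by GATA factors, occur in 22.6% of all 32851 promoter windows, CACCC, bound by KLF1 and related factors, in 52.0%, and both together in 10.1%. Cpox and Alas2 held both, each with GATAA on the minus strand from 86 to 82 bases before the start. They are shown because Cpox had the largest rise among the enzymes that passed the test below and Alas2 is the red cell form of the first enzyme. Capitals mark matches, all on the minus strand and so read here as the reverse complement: TTATC is the GATA match. GGGTG is the CACCC match of Cpox. In Alas2 TTTATA is a match to TATAAA, which occurs in 12.4% of windows. The Cpox window is chr16:58669958-58670207, and the Alas2 window is printed from chrX:150547167-150547374, up to the first annotated exon, beyond which its 3 CACCC matches lie.
Cpox promoter: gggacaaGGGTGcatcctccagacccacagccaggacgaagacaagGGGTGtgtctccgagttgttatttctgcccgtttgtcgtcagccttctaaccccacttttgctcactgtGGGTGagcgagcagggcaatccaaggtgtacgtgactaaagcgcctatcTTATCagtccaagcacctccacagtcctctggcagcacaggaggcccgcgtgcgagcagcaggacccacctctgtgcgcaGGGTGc
Alas2 promoter: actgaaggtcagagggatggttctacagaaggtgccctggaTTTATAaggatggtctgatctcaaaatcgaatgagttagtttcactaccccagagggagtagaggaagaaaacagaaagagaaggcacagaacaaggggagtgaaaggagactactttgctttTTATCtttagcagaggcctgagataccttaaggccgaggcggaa

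Matches also fell in windows of other members: GATAA in 1 window of Uros, and CACCC in windows of Alas1, Alad and Tfrc. Parts of these windows lie in annotated exons of the same gene: 235 and 250 bases for Alas1, 116 for this Uros window and 117 for a Tfrc window. Matches there need not lie upstream of the gene. CACGTG, the E-box bound by MYC and related factors, was found in windows of Alad, Uros and Urod and occurs in 6.02% of all windows. TGGGAA, the core letters bound by RBPJ, was found in windows of the same 3 genes and occurs in 21.6% of windows. A match describes letters in these windows and nothing about binding in these cells.

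In cells without RBPJ, 3 of the 9 genes rose against Control and none fell: Alas1 3.89-fold, Cpox 8.0-fold and Tfrc 2.02-fold. They belong to different stages of the pathway, the first enzyme, the first of the mitochondrial oxidases and the iron uptake receptor. Over all 18174 genes tested, 5.42% passed an adjusted p of 0.05 in this comparison, 2.49% as higher and 2.93% as lower. The median log2 fold change of the 9 genes was 1.49, beside -0.02 over all genes, and 8 of the 9 values were above 0, as were 49% of all genes. Without RBPJ uninduced replicate 2 the members' median was 0.73 over the 8 that could be fitted, with 6 above 0, and without RBPJ uninduced replicate 1 it was 1.55, with all 9 above 0. In 6 of the 9 (Alas1, Alad, Urod, Cpox, Fech and Tfrc) both uninduced libraries were above both Control libraries, a pattern that 22.1% of all genes showed. In bulk RNA, a change in how many cells of a type were sorted and a change in RNA per cell cannot be told apart.

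**Figure D1:**
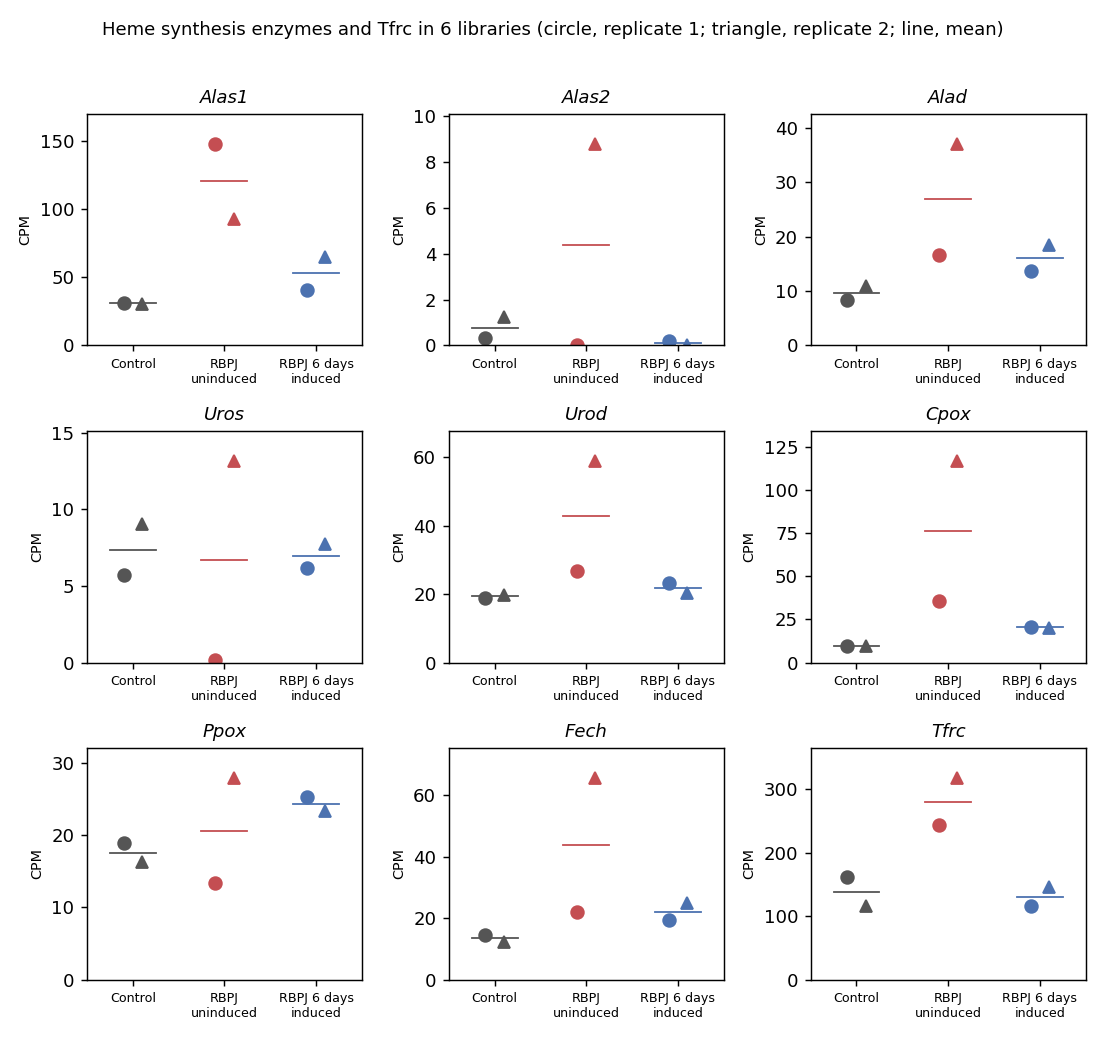
CPM of each gene in the 6 libraries (y axis, from 0, a separate scale for each gene) by group (x axis); circles are replicate 1, triangles replicate 2 and lines the mean of 2 libraries. Both uninduced libraries lie above both Control libraries for Alas1, Alad, Urod, Cpox, Fech and Tfrc, and RBPJ uninduced replicate 1 is near 0 for Uros at 0.174 CPM.

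Alas1 (chr9:106233455-106248654, minus strand, GRCm38), the housekeeping first enzyme, stood at 31.45 and 30.4 CPM in Control, 148 and 93.1 in RBPJ uninduced, and 40.7 and 65.1 in RBPJ 6 days induced. The uninduced libraries were the highest, the induced libraries lay between, and no groups overlapped. Its mean rose from 30.9 ± 0.722 CPM (SD, n = 2) in Control to 121 ± 39.1 (SD, n = 2) without RBPJ. The log2 fold change was 1.96 (SE 0.31, adjusted p = 0.00783). The call was lost without Control replicate 2 (1.85, adjusted p = 0.0522) and kept when any other library was left out. After 6 days of induction Alas1 was 1.19 lower on the log2 scale than in uninduced cells (adjusted p = 0.0857), which did not pass. That difference passed at -1.47 without RBPJ uninduced replicate 2 (adjusted p = 0.00383), without the low-count filter (adjusted p = 0.00276) and in DESeq2 (adjusted p = 0.00925), and it was -0.76 without replicate 1 (adjusted p = 0.146). Against Control the induced value was 0.77 (adjusted p = 0.799).

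Alas2 (chrX:150547375-150570638, plus strand), the red cell form, was nearly silent apart from 1 library. Its counts were 4 and 7 in Control, 0 and 79 in RBPJ uninduced, and 2 and 0 in RBPJ 6 days induced, so that RBPJ uninduced replicate 2 held most of them at 8.80 CPM. The other uninduced library had none, which allows up to 3 counts at its depth. No comparison passed (uninduced against Control 2.56, SE 2.02, adjusted p = 0.582), and without RBPJ uninduced replicate 2 the gene no longer passed the filter on low counts. It shares 311 exon bases with the opposite-strand gene Apex2, which had 119 to 382 counts a library, and the labels do not state whether counting used strand. In RBPJ uninduced replicate 2 Alas1 was at 15.1 CPM per kilobase of exon (RPKM) and Alas2 at 3.66 RPKM, and Alas1 was the higher of the pair in all 6 libraries.

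Alad, Uros and Urod, the cytosolic enzymes, did not pass in any comparison. Alad, which joins molecules of aminolevulinate, stood at 8.38 and 10.97 CPM in Control, 16.7 and 37.1 in RBPJ uninduced, and 13.8 and 18.5 in RBPJ 6 days induced. Urod, which trims the side chains of the ring, had 19.0 and 19.8 CPM in Control, 26.8 and 58.8 in RBPJ uninduced and 23.1 and 20.2 in RBPJ 6 days induced. For both, the uninduced libraries lay above Control, with RBPJ uninduced replicate 2 far above its partner. The log2 fold changes against Control were 1.49 for Alad (SE 0.44, adjusted p = 0.092) and 1.148 for Urod (SE 0.38, adjusted p = 0.125). Left out in turn, the uninduced libraries moved both values: without replicate 1 they passed at 1.90 (adjusted p = 0.00232) and 1.55 (adjusted p = 0.0027), and without replicate 2 they were 0.79 (adjusted p = 0.309) and 0.45 (adjusted p = 0.489).

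Uros, the uroporphyrinogen synthase that closes the ring, behaved differently in 1 library. Its counts were 75 and 51 in Control, 1 and 118 in RBPJ uninduced, and 70 and 83 in RBPJ 6 days induced. At its depth RBPJ uninduced replicate 1 would have held 45.8 counts at the level of the other 5 libraries together. The uninduced pair therefore spanned 0.174 to 13.2 CPM and enclosed all other libraries. Its log2 fold change was -0.11 (95% interval -2.59 to 2.37, adjusted p = 0.985), an interval too wide to show whether the enzyme moved. Without RBPJ uninduced replicate 2 it was -5.30 (adjusted p = 0.00592), a call that rests on that 1 count.

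Of the mitochondrial enzymes, Cpox rose and Ppox and Fech did not pass. Cpox (chr16:58670292-58717636, plus strand), coproporphyrinogen oxidase, stood at 9.75 and 9.38 CPM in Control, 36.0 and 117 in RBPJ uninduced, and 20.5 and 20.2 in RBPJ 6 days induced. Control and induced pairs were tight, the uninduced pair was spread 3.25-fold, and no groups overlapped. Its log2 fold change without RBPJ was 3.0 (SE 0.49, adjusted p = 0.0098). The value was 1.89 without RBPJ uninduced replicate 2 and 3.55 without replicate 1, passing in both. It missed the threshold without Control replicate 2 (2.86, adjusted p = 0.0518) and with only the 4 compared libraries (2.97, adjusted p = 0.0684). On induction Cpox was 1.91 lower (adjusted p = 0.0791) but still 1.09 above Control (unadjusted p = 0.0464, adjusted p = 0.932), neither of which passed. The value on induction was -0.81 without RBPJ uninduced replicate 2 (adjusted p = 0.198) and passed at -2.47 without replicate 1 (adjusted p = 3.73e-05), at -1.86 without the low-count filter (adjusted p = 4.86e-06), at -1.90 in DESeq2 (adjusted p = 0.00351) and at -1.76 with the replicate number as a block (adjusted p = 0.0417).

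Ppox, protoporphyrinogen oxidase, stood at 18.9 and 16.3 CPM in Control, 13.4 and 27.9 in RBPJ uninduced, and 25.3 and 23.3 in RBPJ 6 days induced. The uninduced pair enclosed the other 4 libraries. The log2 fold change without RBPJ was 0.23 (95% interval -0.63 to 1.10, adjusted p = 0.844), so changes of about 2-fold upwards are within the interval. Ppox shares 791 exon bases with the opposite-strand gene B4galt3, which had 68 to 285 counts a library.

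Fech (chr18:64452914-64490251, minus strand), the ferrochelatase that completes heme, stood at 14.7 and 12.2 CPM in Control, 21.9 and 65.6 in RBPJ uninduced, and 19.5 and 24.9 in RBPJ 6 days induced. Both uninduced libraries were above Control, and RBPJ uninduced replicate 1 lay between the induced libraries. Its log2 fold change of 1.70 (SE 0.47, adjusted p = 0.0742) missed the threshold. It passed without RBPJ uninduced replicate 1 (2.22, adjusted p = 0.000175), without RBPJ 6 days induced replicate 1 (1.72, adjusted p = 0.0266) or replicate 2 (1.60, adjusted p = 0.0397), and in DESeq2 (1.62, adjusted p = 0.019). Without RBPJ uninduced replicate 2 it was 0.68 (adjusted p = 0.316).

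Tfrc (chr16:32608920-32632794, plus strand) was the most abundant of the 9 and passed in both directions of the experiment. It stood at 162 and 116 CPM in Control, 243 and 317 in RBPJ uninduced, and 117 and 145 in RBPJ 6 days induced. The uninduced libraries were above the other 4, and the Control and induced libraries overlapped. Tfrc was 1.01 higher on the log2 scale without RBPJ (SE 0.23, adjusted p = 0.0365) and 1.10 lower, or 2.14-fold, after induction (log2 fold change -1.10, SE 0.23, adjusted p = 0.0465). Against Control the induced value was -0.09 (95% interval -0.60 to 0.42, adjusted p = 1). Both calls were near the threshold. The rise was lost without Control replicate 2 (0.70, adjusted p = 0.233), without RBPJ uninduced replicate 2 (0.78, adjusted p = 0.0599) and with only the 4 compared libraries (0.99, adjusted p = 0.117). The fall was lost without RBPJ 6 days induced replicate 1 (-0.93, adjusted p = 0.372), without replicate 2 (-1.20, adjusted p = 0.11) and with only the 4 compared libraries (-1.09, adjusted p = 0.0837).

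After induction, Tfrc was the 1 gene of the 9 that passed against uninduced cells. Over all genes, 1.96% passed in this comparison and 0.413% passed as lower. The median log2 fold change of the 9 was -0.99, beside -0.03 over all genes, and it was -0.16 over 8 members without RBPJ uninduced replicate 2. In 4 genes (Alas1, Urod, Cpox and Tfrc) both induced libraries were below both uninduced libraries, as in 21.8% of all genes. Against Control, none of the 9 passed in edgeR or in DESeq2, 2 (Alas1 and Cpox) had an unadjusted p under 0.05, and 0.187% of all genes passed, with 5.17% under the unadjusted threshold. In that comparison 6 genes (Alas1, Alad, Urod, Cpox, Ppox and Fech) had both induced libraries above both Control libraries, as did 20.8% of all genes, and Alas2 had both below, as did 16.8%. The Alas2 counts were 2 and 0 in induced and 4 and 7 in Control, too few to show a direction. The median was 0.46, beside -0.02 over all genes.

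**Figure D2:**
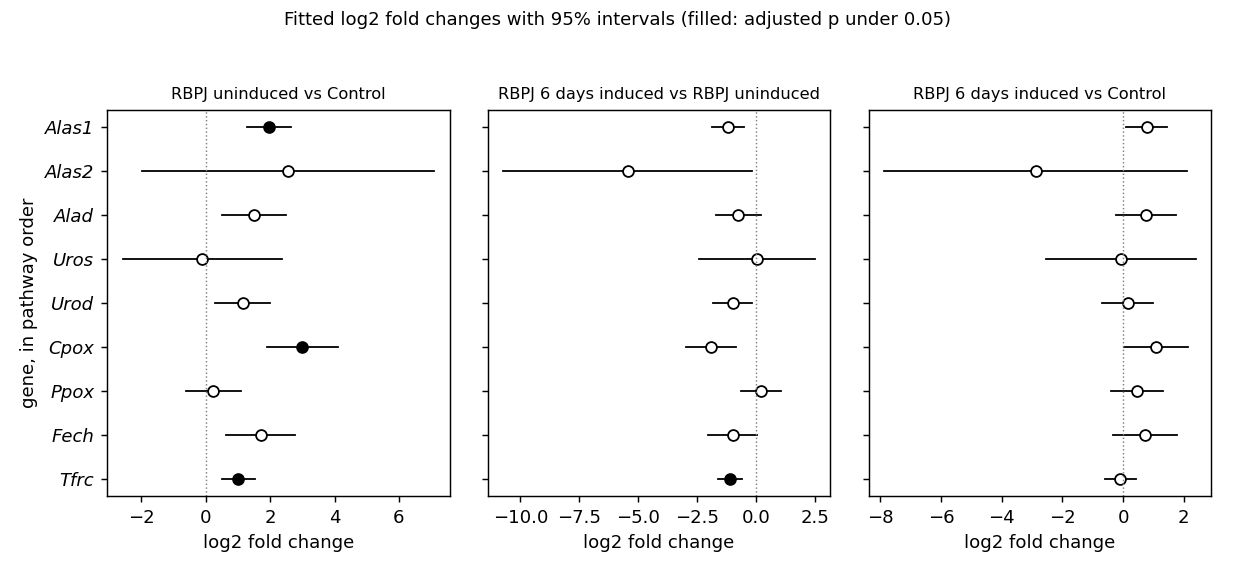
Fitted log2 fold changes (x axis, a separate scale for each panel) of the 9 genes in pathway order (y axis) in the 3 comparisons; bars are 95% intervals and filled points passed an adjusted p of 0.05. Alas1, Cpox and Tfrc are filled without RBPJ, Tfrc alone on induction and none against Control, and the intervals of Alas2 and Uros are the widest.

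Levels of different genes were compared per length of exon, in RPKM. In Control the order of mean RPKM was Tfrc (22.5), Urod (7.48), Alad (5.17), Alas1 (5.01), Ppox (3.89), Uros (2.06), Cpox (1.44), Fech (0.972) and Alas2 (0.321). Alad (SD 0.98) and Alas1 (SD 0.117), and likewise Uros (SD 0.655) and Cpox (SD 0.0394), were neighbours closer than the larger of their SDs. Without RBPJ the order was Tfrc (45.3), Alas1 (19.6), Urod (16.5), Alad (14.4), Cpox (11.5), Ppox (4.57), Fech (3.16), Uros (1.86) and Alas2 (1.83), with SDs of 6.33 to 8.75 for Alas1, Urod, Alad and Cpox, and of 2.27, 2.24, 2.57 and 2.59 for the last 4. Below Tfrc, every pair of neighbours in that order was closer than the larger of their SDs. In induced cells Tfrc (21.2) was followed by Alad (8.64), Alas1 (8.57) and Urod (8.37), again within their spread, and then by Ppox (5.38), Cpox (3.06), Uros (1.95), Fech (1.60) and Alas2 (0.0367). Exon lengths are those of all annotated exons joined, from 1871 bases for Alad to 13838 for Fech. The order between genes, and the shares of the summed RPKM below, depend on these lengths. In mean CPM, Fech in Control (13.45) stood above Alad (9.67), Cpox (9.56) and Uros (7.37).

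The summed RPKM of the 8 enzymes was 25.3 and 27.4 in Control, 53.3 and 93.4 in RBPJ uninduced, and 34.8 and 40.4 in RBPJ 6 days induced, with no overlap between groups. The uninduced libraries reached their higher sums in different ways. Alas1 made up 45.1% of the sum in RBPJ uninduced replicate 1 and 16.1% in replicate 2, against 18% to 26.1% in the other 4 libraries. Cpox made up 10.1% and 18.8% in the uninduced libraries, against 5.14% to 8.85% in the others. Ppox, at 5.57% and 6.61%, had its lowest shares in the uninduced libraries, beside 12.8% to 16.5% elsewhere.

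**Figure D3:**
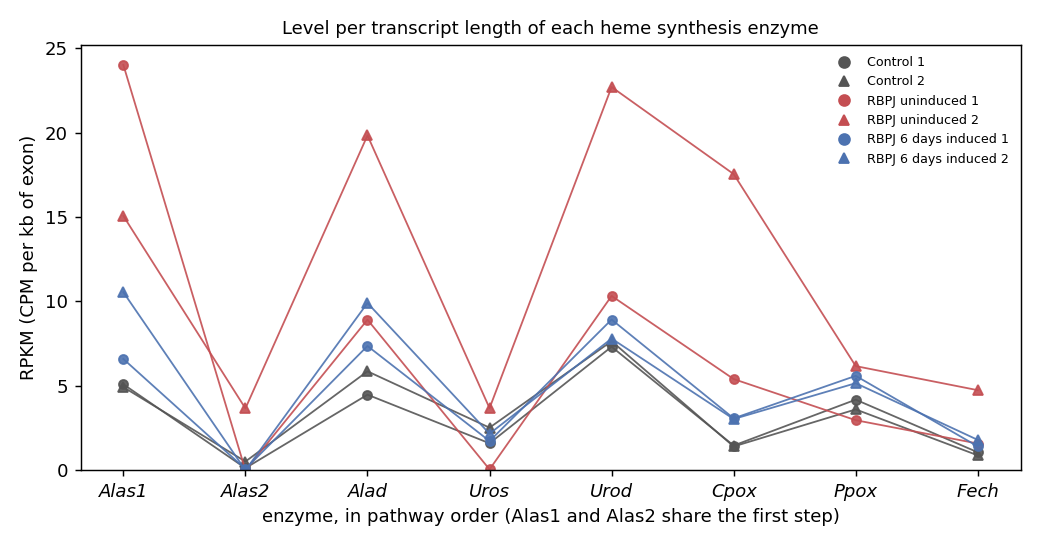
RPKM (y axis, from 0) of the enzymes in pathway order (x axis) in the 6 libraries; lines join the values of 1 library. RBPJ uninduced replicate 1 peaks at Alas1 (24.0 RPKM), while RBPJ uninduced replicate 2 is the highest library at every enzyme other than Alas1.

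The uninduced libraries thus differed from each other along the pathway. Alas1 was 1.59-fold higher in replicate 1, whereas all the other members were higher in replicate 2: Tfrc 1.30-fold, Ppox 2.08-fold, Urod 2.20-fold, Alad 2.22-fold, Fech 3.0-fold and Cpox 3.25-fold, with Alas2 and Uros at or near 0 in replicate 1. These folds depend on the scaling factors of the library totals, 1.13 in replicate 1 and 0.824 in replicate 2. On unscaled totals Tfrc was not higher in replicate 2 (1400 of 5098927 counts in replicate 1, 2848 of 10918205 in replicate 2). The pairs of the other groups were closer. In Control the fold between libraries was at most 1.58 for the members other than Alas2, and in induced cells, again leaving out Alas2, it was at most 1.60.

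Some markers of red cell precursors rose without RBPJ as well. Of 18 erythroid genes analysed, 9 rose without RBPJ and none fell. Among them was Car1, an early red cell carbonic anhydrase (0.305 and 0 CPM in Control, 110 and 287 in RBPJ uninduced, adjusted p = 0.000387). The transcription factors Tal1 (2.61, adjusted p = 0.00133) and Klf1 (6.23, adjusted p = 0.00424) of that list rose too. Tal1 is also counted among blood stem cell factors. Without RBPJ uninduced replicate 2, the values of Tal1 and Klf1 were 2.43 and 5.28. The summed CPM of the 18 was 146 and 165 in Control, 730.2 and 2223 in RBPJ uninduced, and 606 and 527 in RBPJ 6 days induced. The list's median log2 fold change was 2.73, beside -0.02 over all genes, and between 3 genes (only the 4 compared libraries) and 13 genes (no filter, or without RBPJ uninduced replicate 1) passed under the alternatives. Genes of later red cells did not pass: in the uninduced pair Hbb-bs was at 0 and 33.8 CPM and Hba-a1 at 0.348 and 12.8 CPM. On induction none of the 18 passed as lower in edgeR, 8 had an unadjusted p under 0.05, 5 passed in DESeq2, and 12 passed in edgeR without RBPJ uninduced replicate 1. The part of red cell precursors in the values of the heme enzymes was not tested.

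Other lineages moved as well. Of 8 mast cell and basophil genes tested, 7 rose without RBPJ, with sums of 85.2 and 70.9 CPM in Control, 1038 and 682 in RBPJ uninduced and 391 and 346 in RBPJ 6 days induced. Of 9 myeloid genes, 6 rose, with sums of 584 and 510, 4432 and 3314, and 777 and 1679 CPM. For both lists RBPJ uninduced replicate 1 was the higher of its pair, as it was for Alas1. The order of 2 libraries does not tie a gene to a list. Of 5 megakaryocyte genes tested, 2 rose (Itga2b and Pf4), and of 7 B-lineage genes 1 rose (Cd79a). The B-lineage count was 0 without RBPJ uninduced replicate 2, without either Control library or with only the 4 compared libraries, 4 with the replicate block and 6 without the low-count filter or without any 1 of the other 3 libraries. The mast cell count was 4 of 9 without Control replicate 2, the myeloid count was between 5 and 8 under the alternatives, and the megakaryocyte count between 1 and 3. Of 10 T-lineage genes tested, 5 fell without RBPJ and 5 rose on induction, with sums of 878 and 1245 CPM in Control, 35.8 and 63.1 in RBPJ uninduced and 428 and 489 in RBPJ 6 days induced. Without RBPJ, the T-lineage count was 10 of 11 without Control replicate 1 or without the filter, 8 or 9 without an RBPJ uninduced or induced library, 8 in DESeq2 or with the replicate block, and 4 with only the 4 compared libraries. The part of these lineages in the values of the heme enzymes was not tested.

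Of 12 cell cycle genes, 6 rose without RBPJ and 3 (Mcm2, Mcm5 and Rrm2) fell on induction. Their summed CPM was 2332 and 2187 in Control, 3729 and 4416 in RBPJ uninduced, and 2550 and 2201 in RBPJ 6 days induced, so that the uninduced libraries stood above the other 4. The count of rising genes was 0 without Control replicate 1, without Control replicate 2 or with only the 4 compared libraries, and 3 without either induced library. The count of falling genes was 0 without either induced library or with only the 4 compared libraries, 6 without RBPJ uninduced replicate 1, 5 without the filter and 9 in DESeq2. The part of cell division in the values of Tfrc was not tested.

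**Figure D4:**
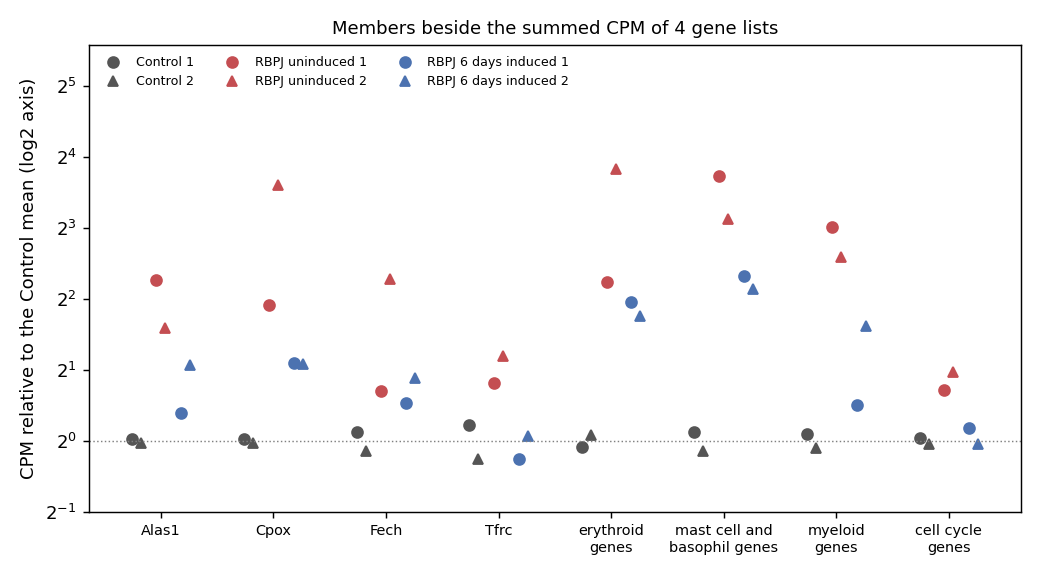
CPM relative to the mean of the Control libraries (y axis, log2 scale) for 4 members and for the summed CPM of 4 gene lists (x axis); circles are replicate 1 and triangles replicate 2. In RBPJ uninduced replicates 1 and 2, Cpox is at 3.76 and 12.2, Fech at 1.63 and 4.88 and the erythroid genes at 4.7 and 14.3. Tfrc (1.75 and 2.28) and the cell cycle genes (1.65 and 1.95) are also higher in replicate 2 but stay at 2.28 or less. Alas1 (4.79 and 3.01), the mast cell genes and the myeloid genes are higher in replicate 1. The order of 2 libraries does not tie a gene to a list.

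In the rest of the heme and iron pathway few genes passed without RBPJ. Of all 18174 genes tested in edgeR, 2.49% passed as higher in that comparison and 3419 had an unadjusted p under 0.05. Of 13 tested genes of mitochondrial transport for heme synthesis and of iron-sulfur clusters, none passed without RBPJ in edgeR, 4 had an unadjusted p under 0.05, 1 passed in DESeq2 and 2 passed in edgeR without RBPJ uninduced replicate 1. The list's median log2 fold change was 0.42. Abcb10, a mitochondrial transporter needed for heme synthesis in red cell precursors, stood at 18.3 and 14.9 CPM in Control and 33.7 and 39.2 in RBPJ uninduced (1.13, adjusted p = 0.053). Slc25a38 and Slc25a37, the mitochondrial carriers for glycine and for iron, had log2 fold changes of -0.08 (adjusted p = 0.963) and -0.29 (adjusted p = 0.582).

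Of 13 genes of iron uptake, storage and sensing, 2 rose without RBPJ and none fell. Tfr2, the second transferrin receptor, which senses iron-loaded transferrin, stood at 5.56 and 8.14 CPM in Control, 55.1 and 67.7 in RBPJ uninduced, and 27.8 and 35.3 in RBPJ 6 days induced. It rose by 3.19 on the log2 scale (adjusted p = 0.00128) and was still higher than Control after induction (2.23, adjusted p = 0.0294). That second call was lost without Control replicate 1 (adjusted p = 0.123) or Control replicate 2 (adjusted p = 0.0531). Steap3, the endosomal iron reductase that works with transferrin receptor 1, stood at 14.5 and 13.6, 35.5 and 55.8, and 22.1 and 20.2 CPM in the 3 groups and rose by 1.70 (adjusted p = 0.0176), a call lost without Control replicate 1 (adjusted p = 0.0795), without Control replicate 2 (adjusted p = 0.102) or with only the 4 compared libraries (adjusted p = 0.0812). The ferritin chains Fth1 (0.19, adjusted p = 0.778) and Ftl1 (0.29, adjusted p = 0.686) did not pass. Ireb2 and Aco1, which encode the iron regulatory proteins that bind the stem-loops printed above, had values of -0.44 (adjusted p = 0.292) and 0.57 (adjusted p = 0.353).

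Of 8 genes of heme export and breakdown, 1 rose without RBPJ, and 3 did without RBPJ uninduced replicate 2. In DESeq2, without the low-count filter or without RBPJ uninduced replicate 1, 1 gene of the list fell. The gene that rose was Blvrb, a biliverdin reductase abundant in red cells. It stood at 2.97 and 3.72 CPM in Control, 31.3 and 101 in RBPJ uninduced, and 21.6 and 9.41 in RBPJ 6 days induced (4.33, adjusted p = 0.00615), and its value was 3.23 without RBPJ uninduced replicate 2. Hmox1, the inducible heme oxygenase, was between 0 and 3.72 CPM in all 6 libraries. Bach1, the heme-sensing repressor, was at 82.2 and 127 CPM in Control and 62.4 and 48.3 in RBPJ uninduced (-0.92, adjusted p = 0.0759).

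Across the 6 libraries, the protein-coding genes whose log2 CPM was most like that of 3 members were ranked by Pearson's r, as a description of libraries that share groups and depth. Those closest to Alas1 were Zswim3 (r = 0.992), Dhrs7 (0.992) and Kpna2 (0.991). Those closest to Alas2 were Psmf1 (0.986), Tmem163 (0.985) and Med9 (0.985), and those closest to Tfrc were Ddx49 (0.998), Tubgcp2 (0.995) and Prpf8 (0.989).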

How the data were processed

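The authors deposited unnormalized whole-number read counts, 1 table of 47729 Ensembl genes per library. Per the submitters' processing notes the build was mm10 and the tools were HISAT2, StringTie and HTSeq, with no versions; strand use is not stated in the labels. Symbols, positions and exon lengths came from GENCODE M21 on GRCm38 (47310 IDs matched). The 9 genes and the lists of related genes and markers were chosen with earlier results of these data known.

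Counts were tested in edgeR 4.0.16 (R 4.3.3): filterByExpr by group (minimum count 10, minimum total 15; 18174 genes kept), TMM scaling (factors 0.824 to 1.13), and 1 quasi-likelihood fit of all 6 libraries with 3 residual degrees of freedom. Benjamini-Hochberg adjustment ran over all genes tested, with a threshold of 0.05. CPM used TMM-scaled totals of kept genes, and RPKM divided them by exon length. SE is the log2 fold change divided by the square root of F. The fit was tested on simulated data. Replicates differed beyond sampling noise (chi-square per degree of freedom 21.4 in Control, 63.4 in RBPJ uninduced, 18.5 in RBPJ 6 days induced), so none was merged, and the shared spread is in doubt.

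Named genes were all 9; each passing gene of the heme and iron lists; up to 3 genes of smallest p in other lists; and the 3 genes most like Alas1, Alas2 and Tfrc. Bcl11b, Hbb-bs, Hba-a1, Cd79a, Pf4, Abcb10, Slc25a38, Slc25a37, Fth1, Ftl1, Ireb2, Aco1, Hmox1, Bach1 and Mcm5 were named after their values were seen. So were Il2ra and Ptprc. Alternatives were other size factors (DESeq2's, upper quartile), no filter, DESeq2 1.42.0, a replicate block, a fit of only the 4 compared libraries, and 1 library left out in turn. Sequences came from RefSeq (GRCm38.p6) and GENCODE tables. Intervals and floors cover counting error or the fit only. Some genes of the pathway and marker lists are not reported here.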

Additional observations from a re-analysis of the deposited data

How the results depend on the processing

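In RBPJ uninduced against Control, 985 genes passed, 1540 without the low-count filter, 1859 in DESeq2, 219 with only the 4 compared libraries, and 445 to 2000 when 1 library was left out. Of the 9 members, 3 passed, 6 without the filter, 1 (Alas1) with only the 4 libraries, and 0 to 6 with a library left out, 0 without Control replicate 2 and 6 without RBPJ uninduced replicate 1. In induced against uninduced, 357 genes passed, 989 without the filter, 1238 in DESeq2, 71 with the 4 libraries, and 171 to 1374 with a library left out; members passing were 1, 3, 3, 0, and 0 to 5. In induced against Control, 34 genes passed, 304 without the filter, 228 in DESeq2, 177 with the 4 libraries, and 30 to 337 with a library left out; of the members 0 to 1 passed, Cpox without RBPJ uninduced replicate 1 (1.09, adjusted p = 0.038). The causes were not tested.

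Same-numbered libraries did not deviate together (correlations -0.0407, 0.0253 and 0.0107 over 18174 genes), so the numbers were not taken as pairs. With the replicate block, 1147, 534 and 108 genes and 3, 2 and 0 members passed in the 3 comparisons, in the order above. Upper-quartile scaling moved the median of all genes by -0.10 without RBPJ, and no member changed side of the threshold under either other scaling.

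Some values turned sign when 1 library was left out. For Uros the ranges were -5.30 to 0.81 in uninduced against Control (0.12 without Control replicate 2, 0.81 without RBPJ uninduced replicate 1), -0.86 to 5.23 in induced against uninduced (-0.86 without RBPJ uninduced replicate 1, -0.03 without RBPJ 6 days induced replicate 2) and -0.33 to 0.25 in induced against Control (0.25 without Control replicate 2, 0.11 without RBPJ 6 days induced replicate 1). Both extremes of Uros, -5.30 and 5.23, passed without RBPJ uninduced replicate 2. For Ppox they were -0.42 (without RBPJ uninduced replicate 2) to 0.60 without RBPJ, and -0.14 (without RBPJ uninduced replicate 1) to 0.87 on induction. For Fech on induction they were -1.51 to 0.03 (without RBPJ uninduced replicate 2), and for Tfrc in induced against Control -0.34 to 0.22 (0.22 without Control replicate 1, 0.09 without RBPJ 6 days induced replicate 1). A library left alone in its group was assumed to vary like the other groups. Alas2 gave no value where it did not pass the filter.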

Other observations

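Uros was not the only gene with hardly any counts in 1 library. Of 9110 genes with at least 5 CPM in the other 5 libraries, 12, Uros among them, were at least 30-fold lower in RBPJ uninduced replicate 1 than in the lowest of the others. The same criterion found 5 of 8904 genes in Control replicate 1 and none in the other 4 libraries. The criterion was chosen after the counts of Uros had been seen.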
